A study of Mus musculus with 15 samples.

Results

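The acetylation of histone H3 at lysine 27 (H3K27Ac) was compared between 2 ChIP-seq libraries of C10 cells, taken at 3 and at 12 h post-induction (hpi). They were chosen by antibody and time as labelled, and are 2 of the 15 libraries of the study. The study mapped 3 histone marks at 5 times (0, 3, 12, 24 and 48 hpi) with 1 library for each mark and time. C10 cells are a derivative of the mouse pre-B cell line HAFTL and carry C/EBPα fused to the estrogen receptor ligand domain (C/EBPαER) and GFP. Both libraries come from induced cells, which received 100 nM β-estradiol, the dose in the labels, with 10 nM IL-3 and CSF-1 in the medium. The methods of the study give the estradiol dose in another unit, so the dose is uncertain. Control cells received 0.1% ethanol, the solvent. All libraries thus share the fusion protein, and all come from 1 cell line. With 1 library on each side, the spread between replicates is unknown, and no test was run between the times. Tag counts, kept at 1 tag per position and thinned to 15.22 M in each H3K27Ac library, were taken in windows of 3 kb (3000 bp) around 22208 starts of protein-coding genes and 23175 distal windows. The change is log2 of tags at 12 hpi over tags at 3 hpi with 5 tags added to each. A window was measured with at least 20 tags in both libraries together and called with a change of at least 2-fold. The interval beside a change is the exact 95% interval of the ratio of the counts without added tags, and covers counting error only.

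H3K27Ac is placed by the acetyltransferases P300 and CBP on nucleosomes next to active promoters and enhancers and is removed by deacetylases, so that its level can follow the activity of an element in either direction. H3K4Me1 marks enhancers that are poised or active, and H3K27Me3 is the mark of Polycomb repression. C/EBPα and PU.1 are DNA-binding factors of the myeloid lineage, whereas Pax5, Ebf1 and E2A (Tcf3) maintain the B cell program.

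The stretches that follow come from 2 of the 5 distal windows with the largest rises and 2 of the 5 with the largest falls, those ranked 1 and 3 each way, and from the promoter of a gene among the largest rises (genome build mm9, top strand for the distal stretches). They are shown because the counts of short motifs in such windows are described further on. Capitals mark matches on either strand to the letters searched, which were TTGCNNAA for C/EBP, GAGGAAGT for PU.1, TGANTCA for AP-1, CAGCTG for the E-box of E2A, GAAANNGAA for IRF factors and those given with the shares. A match is a run of letters and was not tested for binding. Each distal stretch is 240 bases, chosen as the part of the central 1000 bases with the most matches. Over the central 1000 bases, among which a stretch was chosen, 38.8% of all distal windows held a C/EBP, 32.5% an AP-1, 34.7% an IRF and 44.2% an E-box match, and in a fixed stretch of the central 240 bases 11.2%, 9.48%, 10.0% and 13.9%. Of the 250 bases before the 12471 measured starts 2.34% held a PU.1 match. The first stretch (chr2:160040350-160040589) lay outside protein-coding genes and held a C/EBP match.
Rise on chromosome 2: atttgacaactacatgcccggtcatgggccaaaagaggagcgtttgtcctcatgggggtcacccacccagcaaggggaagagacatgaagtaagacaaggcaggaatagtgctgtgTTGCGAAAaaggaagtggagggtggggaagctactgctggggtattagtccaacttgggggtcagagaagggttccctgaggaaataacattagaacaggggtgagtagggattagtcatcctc
The second (chr8:109135306-109135545) lay in an intron of Cdh1, the gene of E-cadherin, and held matches for C/EBP, AP-1 and IRF.
Rise in Cdh1: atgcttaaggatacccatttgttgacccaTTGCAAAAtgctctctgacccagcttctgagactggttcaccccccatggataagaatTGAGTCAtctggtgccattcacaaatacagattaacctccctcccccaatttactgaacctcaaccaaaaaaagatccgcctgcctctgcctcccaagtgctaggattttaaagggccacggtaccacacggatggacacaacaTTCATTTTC
The third (chr16:19052761-19053000), next to the immunoglobulin lambda light chain locus, held matches for IRF and the E-box.
Fall near Iglc3: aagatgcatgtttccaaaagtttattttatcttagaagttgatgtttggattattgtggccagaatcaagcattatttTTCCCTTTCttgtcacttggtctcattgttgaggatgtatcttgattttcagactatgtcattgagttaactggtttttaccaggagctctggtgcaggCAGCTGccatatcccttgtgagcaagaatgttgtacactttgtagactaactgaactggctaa
The fourth (chr7:129495244-129495483) lay in an intron of Prkcb, the gene of protein kinase C beta, and held a C/EBP match.
Fall in Prkcb: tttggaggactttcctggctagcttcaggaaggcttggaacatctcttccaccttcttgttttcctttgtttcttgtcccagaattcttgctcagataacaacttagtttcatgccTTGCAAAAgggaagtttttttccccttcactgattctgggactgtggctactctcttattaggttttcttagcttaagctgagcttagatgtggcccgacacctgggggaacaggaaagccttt
The last is the 250 bases before the start of Fcrlb, an Fc receptor-like gene (chr1:172843073-172843322, bottom strand, 5′ to 3′), with a PU.1 match. It was chosen after its match was seen, as the one promoter with a PU.1 match among the 10 largest rises, of which 7 held no match to any motif searched, and the promoter of Cyp4v3, among the largest falls, held one as well.
Fcrlb promoter: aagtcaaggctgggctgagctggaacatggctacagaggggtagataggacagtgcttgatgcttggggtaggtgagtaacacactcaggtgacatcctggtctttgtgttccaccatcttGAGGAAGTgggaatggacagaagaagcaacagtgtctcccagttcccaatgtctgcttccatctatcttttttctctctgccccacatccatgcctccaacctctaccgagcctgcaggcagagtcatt

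The libraries differed at the immunoglobulin heavy chain locus, and this applies to every comparison between them. In a segment of 90 kb that holds 20 annotated D segments and Adam6b (chr12:114685001-114775000), the 3 hpi library held 438 tags before thinning (exact Poisson 95% interval 398 to 481). The 12 hpi library held 1 tag (0.025 to 5.57). The H3K27Ac libraries of 0, 24 and 48 hpi held 523, 0 and 1 tags, and the 0 at 24 hpi allows up to 3.69. H3K4Me1 held 2 tags at 3 hpi and 1 at 12 hpi, and H3K27Me3 held 2 and 4. The segment was thus covered in the H3K27Ac libraries of 0 and 3 hpi and nearly bare in the other 7 libraries used, including the H3K4Me1 and H3K27Me3 libraries labelled 3 hpi. In the 90 kb before the segment, H3K27Ac went from 2022 tags at 3 hpi to 802 at 12 hpi, and in the 90 kb after it from 88 to 29. The nearly bare stretch at 12 hpi ran past the segment on both sides, so these counts include part of it. The 10 kb centred 55 kb before the segment's middle held 23 tags at 3 hpi and 0 at 12 hpi. Those centred 85 kb after it held 49 and 1. A search of the genome in bins of 30 kb for 30 or more tags in 1 library and at most 3 in the other found 3 bins, all with the tags at 3 hpi and all in this segment. The same search found 0 bins between 3 and 12 hpi in H3K4Me1 and in H3K27Me3. Deletion of D segments is part of antibody gene rearrangement and marks a cell and its descendants. A difference of time and a difference of cell population between the 3 and 12 hpi libraries cannot be told apart.

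**Figure D1:**
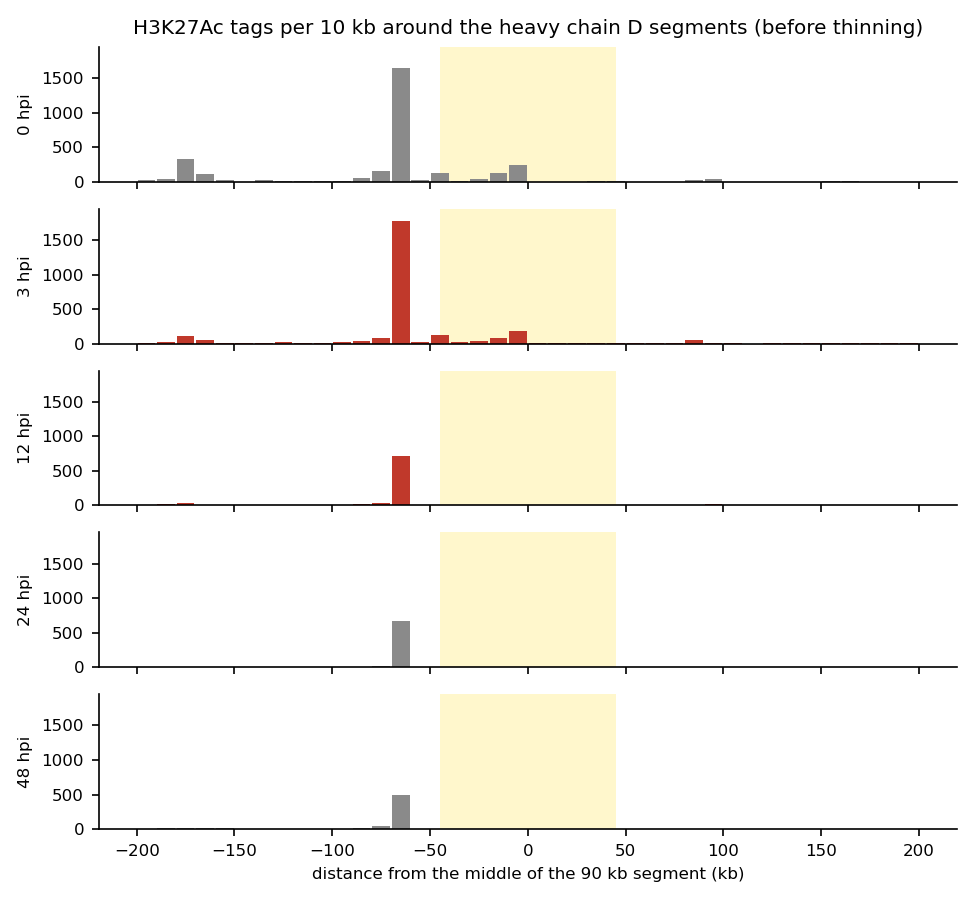
H3K27Ac tags per 10 kb (vertical axis, before thinning) against distance in kb from the middle of the 90 kb heavy chain segment (shaded) at each of the 5 times, with the 3 and 12 hpi libraries in red. Tags lie in the left part of the segment at 0 and 3 hpi and are missing from it at 12, 24 and 48 hpi. The stretch with almost no tags at these later times runs past the shaded part on both sides.

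The libraries also differed over wider scales. Tags in enriched bins made up 62.7% at 3 hpi and 65.9% at 12 hpi. Outside bins enriched in either library, the log2 ratio of 12 to 3 hpi was -0.10 over the genome and lay between -0.28 on chromosome X and -0.002 on chromosome 11. Of 2532 bins of 1 Mb, 142 lay more than 0.5 (log2) from the genome's ratio, and the SD over bins was 0.28. The change in distal windows also ran with GC content, as given with those windows. Bins of 1 kb enriched at both times numbered 89706, with 18064 enriched at 3 hpi only and 33092 at 12 hpi only. The pre-B markers were well covered at both times, with 453 to 1540 tags per start at 3 hpi and 432 to 1351 at 12 hpi over the 8 markers. The 8 macrophage markers had 11 to 362 and 26 to 692 tags. Of the T lineage and erythroid markers, 7 of 13 and 5 of 10 were measured, some at high levels at both times, such as Cd5 (658 and 703 tags), Zfpm1 (504 and 400) and Gfi1b (294 and 302). Of 12 non-blood genes 2 were measured, with at most 12 tags at 3 hpi and 16 at 12 hpi. The part of other cells in the results was not tested.

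At most gene starts acetylation at 3 and 12 hpi was within 2-fold, and the starts that differed were split about evenly. Of 12471 measured starts, 504 (4.04%) were at least 2-fold higher at 12 hpi and 482 (3.86%) were at least 2-fold lower, while 9737 starts were not measured. The median change was -0.17, with quartiles of -0.44 and 0.15. The split moved with the scaling and the window. With tags scaled by background bins 590 starts were higher and 384 lower, in windows of 1000 bp 333 and 454, and with no minimum of tags 643 and 866. After the median change of each of 10 equal groups of starts by GC content was subtracted, which sets the median to 0, the numbers were 669 and 314. Before it, the median lay between -0.18 and -0.11 in 9 of the 10 groups and was -0.30 in the group with the highest GC content (59.2%). Starts with few tags were called more often. Of starts with 20 to 99 tags together, 9.74% were higher and 10.2% lower, against 0.474% and 0.995% of starts with 1000 or more.

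**Figure D2:**
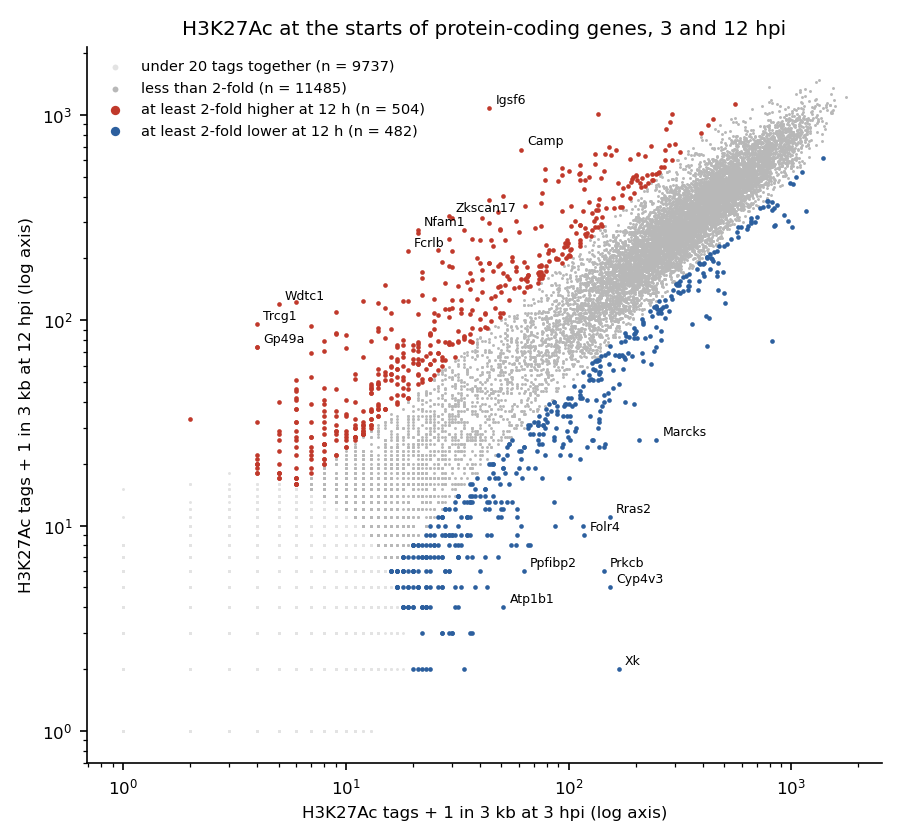
H3K27Ac tags plus 1 in 3 kb at the starts of 22208 protein-coding genes at 3 hpi (horizontal, log axis) and 12 hpi (vertical, log axis), 1 point a gene, coloured by call and with most of the 20 named genes written in. Igsf6 and Camp stand far above the diagonal and Xk far below it, while the bulk of starts lies close to the diagonal.

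The largest rise at a start was that of Igsf6, an immunoglobulin superfamily gene of myeloid cells, with 43 tags in the 3 hpi library and 1082 in the 12 hpi library (change 4.50, interval 4.21 to 5.13). At 0, 24 and 48 hpi it had 24, 1520 and 1142 tags, so that its level at 12 hpi was near that of the later times. H3K4Me1 at this start went from 38 to 451 tags. Camp, which encodes the antimicrobial peptide cathelicidin, had 60 tags at 3 hpi and 677 at 12 hpi (change 3.39, 3.11 to 3.90). Its level was 12 at 0 hpi and 1090 at 24 hpi, and H3K4Me1 went from 107 to 407 tags. Stab1, a scavenger receptor gene, had 5 and 122 tags (3.67), and its window overlaps that of Tnnc1. Fcrlb, the Fc receptor-like gene whose promoter is printed above, had 18 and 217 tags (3.27), and Gp49a, an immunoglobulin-like receptor gene, had 3 and 73 (3.29, 3.00 to 6.92) in a window that overlaps that of its near-identical neighbour Lilrb4. At 48 hpi these 2 genes had 617 and 598 tags.

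The other 5 of the 10 largest rises began from 3 to 28 tags. Card9, the adaptor of C-type lectin receptors, had 20 tags at 3 hpi and 264 at 12 hpi (3.43, 3.07 to 4.46). Nfam1, an activating receptor with an ITAM motif, had 20 and 275 tags (3.49, 3.13 to 4.52). Both had more acetylation before induction than at 3 hpi, with 110 tags at 0 hpi in Card9 and 58 in Nfam1, so that 3 hpi was a low point between higher values. Wdtc1 (4 and 119 tags, change 3.78), Trcg1 (3 and 95, change 3.64) and Zkscan17 (28 and 321, change 3.30) completed the list. For Wdtc1 and Zkscan17 the direction turned when the annotated transcript start with the most tags was used in place of the gene's 5′ end, with changes of -0.76 and -0.71. Over the 5 annotated starts of Wdtc1 the change was at least 3.64 at the 5′ end and the start 603 bp from it, and 0.22 or less at the others. Over the 4 of Zkscan17 it was at least 3.30 at the 5′ end and the start 120 bp from it, and -0.67 and -0.71 at the others. In all 10 genes H3K4Me1 was also higher at 12 than at 3 hpi, with changes of 1.49 (Card9) to 3.41 (Igsf6). Both H3K4Me1 libraries lacked the heavy chain segment that the H3K27Ac library of 3 hpi held. The part of the cell population in these rises was not tested.

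The largest fall was at Xk, which encodes a membrane protein of the XK family, with 167 tags at 3 hpi and 1 at 12 hpi (-4.84, interval of the ratio -12.7 to -4.89). It had 87 tags at 0 hpi, and 0 and 2 tags at 24 and 48 hpi. H3K4Me1 in this window was 0 tags at 3 hpi and 1 at 12 hpi. The H3K4Me1 library labelled 3 hpi lacked the heavy chain segment that the H3K27Ac library of 3 hpi held. The 2 marks therefore cannot be read as 1 state of the same cells. Cyp4v3, a cytochrome P450 gene, went from 153 to 4 tags (-4.13, -7.15 to -3.87), with 5 and 8 H3K4Me1 tags. Prkcb, whose product signals below the B cell receptor, went from 143 to 5 (-3.89, -6.48 to -3.58). The Ras family gene Rras2 went from 152 to 10 tags (-3.39), and Folr4, of the folate receptor family, from 116 to 8 (-3.22). All 5 stayed at 16 tags or fewer at 24 and 48 hpi.

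The other 5 of the 10 largest falls were Enpep, an aminopeptidase gene (115 and 9 tags, -3.10), Marcks, a substrate of protein kinase C (247 and 25, -3.07), Sox13 (102 and 10, -2.84), Atp1b1 (50 and 3, -2.78) and Ppfibp2 (62 and 5, -2.74). For Sox13 the transcript start with the most tags gave 0.24, and of its 5 annotated starts the 5′ end was the one with a called fall. The change of H3K4Me1 over the 10 genes lay between -0.42 (Atp1b1) and 0.78 (Sox13), in libraries that both lacked the heavy chain segment. Whether their cells match those of the H3K27Ac libraries was not tested. H3K27Me3 over 5 kb changed by -0.50 (Xk) to 0.64 (Ppfibp2). In 8 of the 10 genes, acetylation at 3 hpi was above that at 0 hpi. The exceptions were Folr4 (118 tags at 0 hpi) and Ppfibp2 (70).

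Of 23175 distal windows, 5302 (22.9%) were higher at 12 hpi and 2810 (12.1%) lower. Distal windows were chosen by enrichment in either of the libraries compared and starts by annotation, so these shares cannot be set against those at starts. The changes had a median of 0.24 and quartiles of -0.45 and 0.92. Windows farther than 10000 bp from a start gave 3500 higher and 2187 lower. The change differed with base composition. In the lowest of 10 equal groups by GC content (median 36.9%), the median change was -0.42 and 28.9% were lower. In group 9 of 10 (49.4%) the median was 0.52 and 4.90% were lower. Centring each group at 0, which itself evens the split, gave 3649 higher and 3641 lower. Higher windows lay in introns in 51.0% and outside protein-coding genes in 44.7%, lower windows in 42.9% and 53.6%, and windows called neither in 52.2% and 43.6%. The median distance to the nearest gene start was 28314 bp for higher, 57663 bp for lower and 31073 bp for other windows. Lower windows thus stood apart from the others in both, and higher windows were close to those called neither.

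The distal window with the largest rise (chr2:160039001-160042000) lay outside protein-coding genes, 119397 bp from the start of the gene model Gm826. It had 5 tags at 3 hpi and 351 at 12 hpi (5.15, interval 4.90 to 7.77), with 10 at 0 hpi and 762 at 24 hpi. H3K4Me1 went from 33 to 304 tags there, so both marks were higher at 12 hpi. The Cdh1 intron window (chr8:109134001-109137000) had 7 and 266 tags (4.50, 4.19 to 6.58) and 22 and 244 H3K4Me1 tags. A window 71926 bp from the start of ORF63 (chr16:87624001-87627000) had 4 and 191 tags (4.45), and one in an exon 3332 bp from the start of Ambp (chr4:62811001-62814000) had 3 and 160 (4.37). H3K4Me1 in these went from 9 to 105 and from 14 to 266 tags. All 4 windows had 10 tags or fewer at 0 hpi and at least 354 at 48 hpi.

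The window 7294 bp upstream of Smoc1 (chr12:82119001-82122000) differed from these. It had 17 tags at 3 hpi and 659 at 12 hpi (4.92, 4.59 to 6.07) but 317 at 0 hpi, and H3K4Me1 went from 95 to 52 tags. Among the 5 windows with the largest rises it was the one with a high level before induction, and the one in which H3K4Me1 was lower at 12 hpi.

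Of the 5 distal windows with the largest falls, 2 lay near the lambda light chain locus, one of the antibody loci that B lineage cells rearrange. The window 14765 bp from the start of Iglc3 (chr16:19051001-19054000) had 638 tags at 3 hpi and 19 at 12 hpi (-4.74, -5.81 to -4.41), and the other (chr16:19006001-19009000) had 578 and 19 (-4.60). At 0 hpi these windows held 85 and 218 tags, so that both were at their highest of the 5 times at 3 hpi. H3K4Me1 went from 195 to 132 and from 255 to 129 tags. The window in the Prkcb intron (chr7:129494001-129497000) had 445 and 14 tags (-4.57), and its H3K4Me1 fell by 1.28 on the log2 scale, from 327 to 132 tags. The remaining windows, near Kcna4 (chr2:107163001-107166000) and in an intron of Wdr7 (chr18:63938001-63941000), had 161 and 3 tags (-4.38) and 479 and 21 (-4.22). The start of Prkcb and its intron window thus lost acetylation together.

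Called starts lay near distal windows called in the same direction more often than other starts did, in the same libraries. Distal centres lay over 2500 bp from a start, so the nearest of these 3000 bp windows can share tags with the start window. Such pairs were not left out. Of the 504 higher starts, 56.9% had a higher distal window within 50 kb, against 35.3% of starts called neither and 17.0% of lower starts. Of the 482 lower starts, 31.3% had a lower distal window within 50 kb, against 10.95% and 6.75% of starts called neither and higher.

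The times not used in the calls placed these changes in the time course. At higher starts the median over the 5 times in order was 23, 25, 91.5, 149.5 and 119.5 tags. At lower starts it was 51.5, 74, 23, 17 and 19. Higher distal windows had medians of 19, 21, 76, 126 and 110 tags, and lower distal windows 70, 74, 22, 18 and 22. The medians at 3 hpi were close to those at 0 hpi except at lower starts, where that at 3 hpi was above it. Medians of higher windows were higher again at 24 hpi than at 12 hpi, and those of lower windows were at or below their 12 hpi level. Acetylation at 24 hpi was at least 2-fold over 0 hpi in 66.7% of higher starts and 75.5% of higher distal windows, against 5.22% of starts and 22.7% of distal windows called neither. It was at least 2-fold under 0 hpi in 58.3% of lower starts and 67.2% of lower distal windows, against 6.96% and 19.1%. The 0 and 24 hpi libraries took no part in the calls, but they differ at the heavy chain segment in the same way as those of 3 and 12 hpi.

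**Figure D3:**
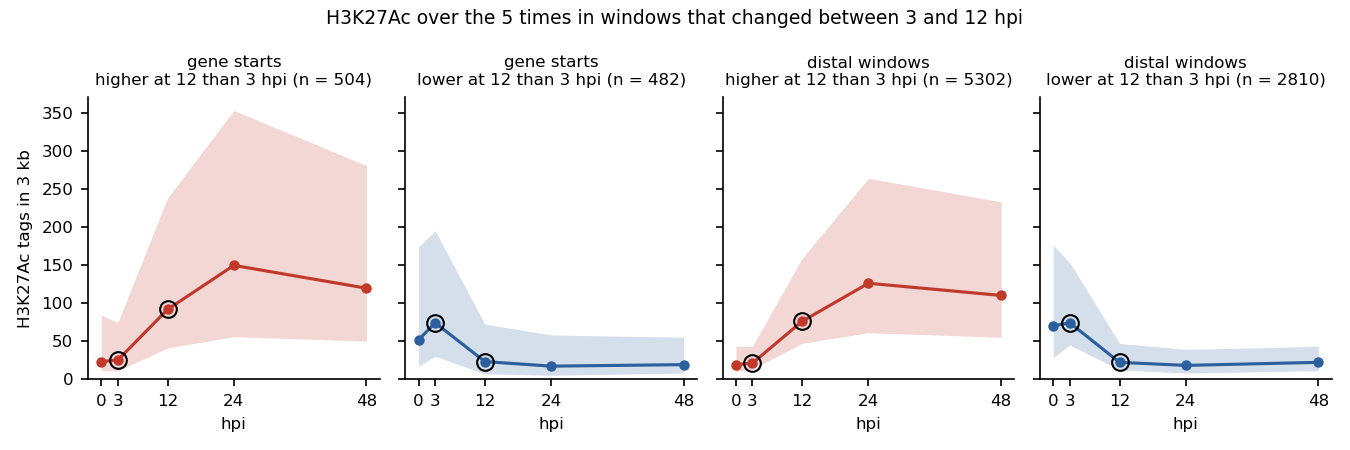
H3K27Ac tags in 3 kb (vertical axis) against hpi for starts and distal windows called higher or lower between 3 and 12 hpi, with the median over windows (line) and quartiles (band), and the 2 times that made the calls circled. The step between 3 and 12 hpi follows from the calls. Medians at 24 and 48 hpi, which made no calls, stay on the side reached at 12 hpi.

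Some of these windows had an extreme value at 3 hpi. Acetylation at 3 hpi was the highest of the 5 times in 74.3% of lower starts and 52.5% of lower distal windows, against 38.3% and 13.3% of windows called neither. It was the lowest of the 5 in 54.8% of higher starts and 46.1% of higher distal windows, against 7.58% and 17.5%. Since the 3 hpi value made the calls, these shares are a description. With 0 hpi in the place of 3 hpi, 704 starts were higher and 529 lower at 12 hpi, and 6590 and 4063 distal windows. With 24 hpi in the place of 12 hpi, 754 starts were higher and 1111 lower, and 6809 and 4045 distal windows. Both of these settings were chosen after the data were seen.

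The change of H3K4Me1, measured in other libraries, followed that of H3K27Ac at gained elements and was small at lost ones. Over the 5302 higher distal windows the median H3K4Me1 change was 0.97, from 57 tags at 3 hpi to 127 at 12 hpi, and 49.1% were at least 2-fold higher, against 7.42% of windows called neither. Over the 2810 lower windows the median was -0.36, and 8.86% were at least 2-fold lower, against 1.42%. With background scaling this median was -0.12. At starts the medians were 0.65 for higher, -0.10 for lower and -0.13 for neither. The value at lower starts was thus within that of starts called neither, and it turned to 0.16 with background scaling and 0.01 after GC centring. H3K27Me3 over 5 kb changed little in all classes, with medians of 0.13, 0.13 and 0.10 at higher, lower and other starts and 0.08, 0.00 and 0.00 in distal windows. Its level was higher at lower starts, with a median of 49 tags at 3 hpi, than at higher starts (38) and starts called neither (23).

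The H3K4Me1 change differed with the ratio of H3K27Ac at 3 hpi to that at 0 hpi. Since the 3 hpi value made both the calls and this split, the classes are a description. Of the higher distal windows, 918 had at least 2-fold more acetylation at 3 than at 0 hpi, with medians of 9, 43 and 150 tags at 0, 3 and 12 hpi, and their median H3K4Me1 change was 1.61. In 3635 windows the 3 hpi level was within 2-fold of 0 hpi (medians 18, 18 and 64), and the H3K4Me1 change was 0.99. In the remaining 749 windows the 3 hpi level was at least 2-fold below 0 hpi (93, 26 and 99), and the H3K4Me1 change was -0.03, with 5.07% at least 2-fold higher. The median H3K4Me1 change was thus highest in windows where acetylation at 3 hpi was above that at 0 hpi and near 0 where it was below. Higher starts had the same order, with 1.40 in 73 starts, 0.70 in 347 and 0.11 in 84. The classes of higher distal windows also began from different H3K4Me1 levels, with medians of 58, 47 and 133 tags at 3 hpi. Of the lower distal windows, 724 had at least 2-fold more acetylation at 3 than at 0 hpi (medians 14.5, 69.5 and 18 tags), and H3K4Me1 changed by -0.08. In 1740 windows within 2-fold of 0 hpi it changed by -0.41, and in 346 windows already 2-fold below 0 hpi at 3 hpi (238, 79.5 and 26) by -0.62. In these classes of lower windows, in the same order, the median H3K4Me1 level at 3 hpi was 61.5, 125 and 211.5 tags. The 3 and 12 hpi H3K4Me1 libraries both lacked the heavy chain segment, which the H3K27Ac libraries of 0 and 3 hpi held. The part of the cell population in the change of either mark was not tested.

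**Figure D4:**
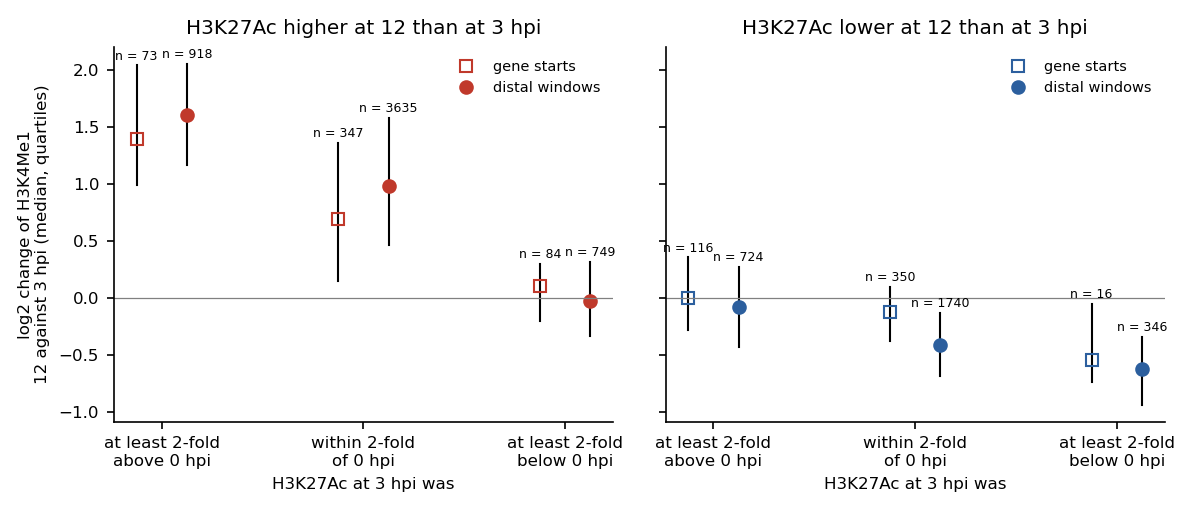
Median log2 change of H3K4Me1 from 3 to 12 hpi (vertical axis, bars are quartiles over windows) for starts (open squares) and distal windows (filled circles) called higher (left) or lower (right) in H3K27Ac, split by the H3K27Ac level at 3 hpi against 0 hpi. Medians of higher windows run from 1.61 and 1.40 where acetylation at 3 hpi was above 0 hpi to -0.03 and 0.11 where it was below. The 3 hpi value made both the calls and the split.

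Genes were then grouped by function in 26 lists with 534 genes, of which 527 were found as protein-coding. The share called over all starts, 4.04% higher and 3.86% lower, and the median of -0.17 are the values to hold beside each list. These values differed with the level, which the lists do not share. Starts with 20 to 99 tags together had 9.74% higher, 10.2% lower and a median of 0.0. Those with 1000 or more had 0.474%, 0.995% and -0.25. Start counts of list members other than Sfpi1 are given at the gene's 5′ end only, which need not be the start with the most tags. With the transcript start with the most tags the list medians compared stayed within their intervals. In that setting 9 list counts or changes of single genes moved, and 3 single genes turned. GC centring raised the number called higher to 15 among pattern recognition and macrophage surface genes, 11 among cytokines and chemokines and 8 among Fc receptor and adaptor genes. It also raised it to 5 among macrophage markers, 4 each among lysosome and actin genes and 2 among pre-B receptor genes. Among cytokine feedback genes and pre-B markers it was raised to 1 each. Background scaling also gave more, with 15, 10 and 7 among pattern recognition, cytokine and Fc receptor genes. It gave 4 each among macrophage markers, lysosome and actin genes. Among pre-B receptor genes, cytokine feedback genes and pre-B markers it gave 1, 0 and 0.

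Transcription factors of the 2 lineages differed. All 16 measured B lineage factors had a change below 0, with a median of -0.54, 0 higher and 4 lower. A change below 0 was also common elsewhere. Of 12 genes used in every cell, 1 was above 0, with a median of -0.32. Ikzf3 (Aiolos), an Ikaros family factor of B cells, went from 494 tags at 3 hpi to 171 at 12 hpi (-1.50, -1.79 to -1.28), and its start had 745 at 0 hpi and 58 at 48 hpi. Id3, an inhibitor of E proteins, went from 290 to 126 (-1.17), Bcl11a from 782 to 360 (-1.11) and Myb, a factor of progenitors, from 989 to 467 (-1.07, -1.24 to -0.92). Each of these 4 was lower at 48 than at 12 hpi. The core factors Pax5 (856 and 656 tags, -0.38) and Ebf1 (886 and 700, -0.34), named here for their role and with values known, were not called. With GC centring the median of the list was -0.33 and 2 members were lower. Of 19 measured myeloid factors, 1 was higher and 1 lower, with a median of -0.03 that was 0.07 with background scaling. The higher gene was Id1, an inhibitor of helix-loop-helix factors (134 and 343 tags, 1.32), and the lower one Rxra, a nuclear receptor (73 and 27, -1.29), which was not called after GC centring. Hif1a (10 and 20 tags, 0.74) and Rara (20 and 33, 0.60) were not called, and both intervals held 0.

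The starts of the myeloid regulators themselves, also named for their role, were acetylated at both times. Sfpi1, which encodes PU.1, had 1290 tags at 3 hpi and 1439 at 12 hpi (0.16, 0.05 to 0.27) at its annotated 5′ end, while H3K4Me1 there went from 667 to 378. At its start 14390 bp downstream it had 1150 and 1173 tags (0.03, -0.09 to 0.15) and 231 and 207 H3K4Me1 tags. Cebpb had 482 and 500 tags (0.05), and its H3K4Me1 went from 120 to 323. Cebpa, whose coding sequence is also in the C/EBPαER construct, had 107 and 70 tags (-0.58, -1.07 to -0.16). Cebpd, typed as a pseudogene in the annotation used, had 237 and 308 (0.37). None of these starts was called, and acetylation at Sfpi1 and Cebpb was within a narrow range at all 5 times (1194 to 1554 and 482 to 650 tags).

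Genes of the pre-B cell receptor and B cell surface had a median of -0.32, with 3 lower and 1 higher among 20 measured. Vpreb2, a part of the surrogate light chain, went from 400 to 186 tags (-1.08) after 1134 at 0 hpi. Blk, a B cell Src kinase, went from 22 to 4 (-1.59), and Ms4a1, which encodes CD20, from 37 to 13 (-1.22), at low levels throughout. Vpreb3 went the other way, from 125 to 255 tags (1.0, 0.71 to 1.35), with 334 at 0 hpi. Cd79b, a signalling chain of the receptor, had 453 and 849 tags (0.90) after 1269 at 0 hpi. Both are low values at 3 hpi between higher ones. The other pre-B markers with the largest changes were Blnk (704 and 432 tags, -0.70) and Vpreb1 (1124 and 779, -0.53), and the 8 markers had a median of -0.30 with none called.

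Of 11 measured genes of recombination and lymphoid progenitor receptors, 2 were lower and 0 higher, with a median of -0.29, and 1 was lower with background scaling and with GC centring. Dntt, the terminal transferase that adds bases at V(D)J junctions, went from 499 to 135 tags (-1.85, -2.17 to -1.61) and reached 68 at 48 hpi. Il7r, the receptor for the growth factor of pre-B cells, went from 1051 to 496 (-1.08). Rag1, a subunit of the recombinase, had 44 and 26 tags (-0.66) and had already been 198 at 0 hpi. Xrcc6 had 8 and 13 tags (0.47), and its interval held 0. The D segment difference concerns the same process, and its part in these values was not tested.

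Of 28 measured immediate early and AP-1 genes, 2 were lower, 0 higher and 9 above 0, with a median of -0.34, near that of genes used in every cell (-0.32). They were the orphan nuclear receptors Nr4a3 (638 and 287 tags, -1.14, -1.36 to -0.95) and Nr4a2 (179 and 86, -1.02), which had 422 and 128 tags at 0 hpi. Klf10 (963 and 490, -0.97) and Egr2 (137 and 76, -0.81) were just short of the call or below it. Of 31 genes of cytokine receptor feedback, 1 was lower, a share close to that over all starts, and the median was -0.31. The gene was Spry1, an inhibitor of receptor tyrosine kinase signalling (231 and 83, -1.42). Socs3 (426 and 235 tags, -0.85) and Socs2 (894 and 528, -0.75), inhibitors of JAK-STAT signalling, had 89 and 416 tags at 0 hpi. Each of these starts had its highest value of the 5 times at 3 hpi, except Socs3, which had 427 tags at 24 hpi. Csf1r, the CSF-1 receptor, had 103 and 192 tags (0.87) and 484 at 24 hpi. After GC centring the medians of these lists were -0.05 and -0.09, and 0 of the immediate early genes were lower.

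The clearest shift to higher values was in genes of macrophage surface and pattern recognition, where 13 of 29 measured were higher, 0 lower and 25 above 0, with a median of 0.94. Msr1, a scavenger receptor, had 6 tags at 3 hpi and 93 at 12 hpi (3.15, 2.78 to 5.44) and 429 at 48 hpi. Clec4d, a C-type lectin receptor, had 7 and 78 (2.79), and 1015 at 48 hpi. Tlr8, an endosomal RNA sensor, had 5 and 41 (2.20), and Cd68, a lysosomal glycoprotein of macrophages, had 92 and 341 (1.84, 1.55 to 2.24) after 159 at 0 hpi, so that 3 hpi was a low point there. At each of these starts the level rose further at 24 hpi, so that 12 hpi was not yet the highest value. H3K4Me1 went from 7 to 145 tags at Msr1 and from 8 to 92 at Tlr8, and its median change over the list was 0.73. The 8 macrophage markers, in part the same genes, were all above 0 with a median of 0.90 and 3 higher, Cd68, Lyz2 (lysozyme, 259 and 557 tags, 1.09) and Itgam (CD11b, 11 and 27, 1.0, 0.24 to 2.46). Tyrobp, the adaptor DAP12, had 362 and 692 (0.93).

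Of 19 measured Fc receptor and ITAM or ITIM adaptor genes, 6 were higher and 0 lower, with a median of 0.35. Fcer1g, the common gamma chain of Fc receptors, had 47 tags at 3 hpi and 334 at 12 hpi (2.71, 2.39 to 3.30). Fcgr4, an activating receptor for IgG, had 13 and 88 (2.37), and Cd300ld 5 and 44 (2.29). Lilrb4 shares its window with Gp49a (3 and 73 tags). Phagocyte oxidase, granule and protease genes had 5 higher and 1 lower of 19, with a median of 0.35. Beside Camp, Elane (neutrophil elastase) had 38 and 199 tags (2.25) and then declined to 66 at 48 hpi, whereas Mmp12 (macrophage elastase) had 55 and 203 (1.79) and 678 at 24 hpi. The lower gene was Ltf, with 16 and 4 tags. Mmp12 thus followed the macrophage surface genes in time, while Elane was highest at 12 hpi.

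**Figure D5:**
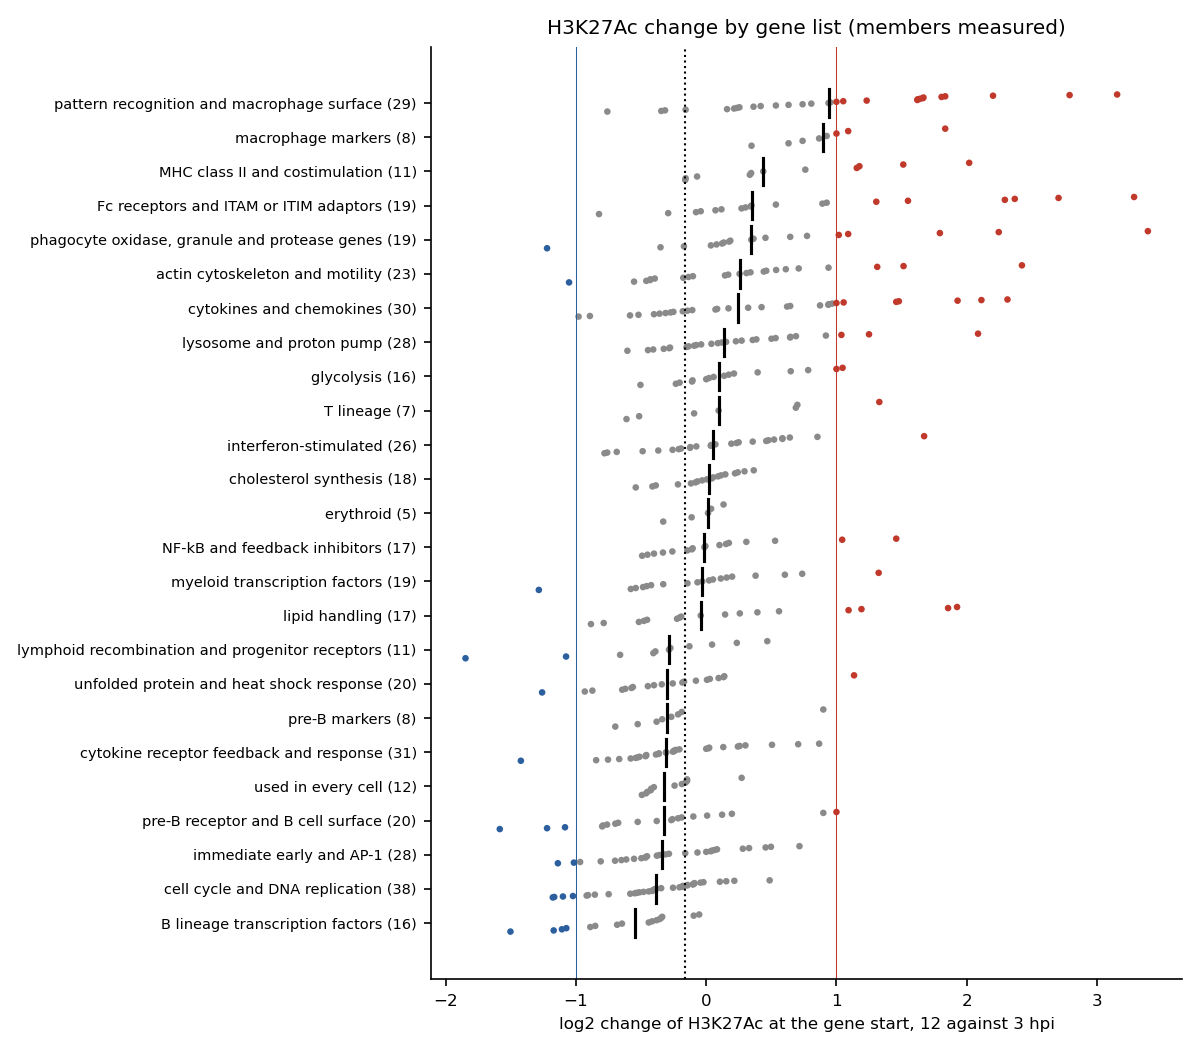
Log2 change of H3K27Ac from 3 to 12 hpi (horizontal axis) at the starts of the measured members of each list with 5 or more (vertical axis, number in brackets), 1 point a gene, red for higher, blue for lower and grey for neither, with the list median as a bar. The dotted line is the median of all starts, -0.17, and medians run from -0.54 in B lineage transcription factors to 0.94 in pattern recognition and macrophage surface genes.

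Of 30 measured cytokine and chemokine genes, 7 were higher and 0 lower, with a median of 0.25. Il6 had 57 tags at 3 hpi and 303 at 12 hpi (2.31, 2.00 to 2.85), and Il1b had 130 and 579 (2.11, 1.88 to 2.44) after 20 at 0 hpi. Ccl2, a chemokine for monocytes, had 16 and 75 (1.93), and Ccr1, a chemokine receptor, had 136 and 388 (1.48). H3K4Me1 was higher at all 4 starts, with changes of 0.36 (Ccr1) to 3.00 (Ccl2). Distal windows within 100 kb whose nearest start was a cytokine or chemokine gene were higher in 41.5% of 65, against 23.9% of all 18885 distal windows within that distance. Of 11 genes of MHC class II and costimulation, 4 were higher, with Cd80 at 163 and 676 tags (2.02, 1.80 to 2.31), Cd86 at 57 and 172 (1.51), H2-DMb2 at 72 and 169 (1.18) and Cd74, the invariant chain, at 74 and 171 (1.16). At Cd80 H3K4Me1 went the other way, from 291 to 117 tags. At Cd86, H2-DMb2 and Cd74 the 0 hpi level (78, 166 and 130 tags) was above that at 3 hpi.

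NF-kB and interferon genes showed little shift. Of 17 measured genes of NF-kB and its feedback, 2 were higher, Tnip1 (15 and 50 tags, 1.46) and Bcl3 (75 and 160, 1.04), while Traf1 (198 and 288, 0.53) and Cd274 (818 and 580, -0.49) were not called. The median of -0.01 was 0.08 with background scaling. Of 26 interferon-stimulated genes 1 was higher, Oas2, which senses double-stranded RNA (32 and 113 tags, 1.67), and the median was 0.05. Dhx58 (415 and 754, 0.85), Ifit3 (50 and 27, -0.78) and Bst2 (608 and 357, -0.76) were not called. A count of 1 in 26 is close to the share over all starts.

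Metabolic and structural genes differed by group. Of 17 lipid handling genes 4 were higher, with Alox5ap, needed for leukotriene synthesis, at 70 and 280 tags (1.93), the cholesterol exporters Abca1 at 40 and 158 (1.86) and Abcg1 at 97 and 228 (1.19), and Apoe at 130 and 283 (1.09). At 0 hpi Alox5ap, Abca1 and Abcg1 had 138, 64 and 455 tags, so that 3 hpi was a low point in these 3, whereas Apoe had 16. The median of the list was -0.04 (0.05 with background scaling), with 8 of 17 above 0, and Olr1 (19 and 8 tags, -0.89) and Fabp5 (316 and 181, -0.79) had the largest changes below 0. Near the list's genes 22 of 52 distal windows (42.3%) were higher, against 23.9% of all within 100 kb of a start, and 7 of the 22 were near Abca1. None of 18 cholesterol synthesis genes was called, and the largest changes were those of Idi1 (724 and 496, -0.54), Hsd17b7 (204 and 152, -0.41), Mvk (407 and 310, -0.39) and Fdft1 (294 and 380, 0.37). Of 16 glycolysis genes 2 were called higher, Pfkfb3 (10 and 26 tags, 1.05) and Ldha (9 and 23, 1.0), with wide intervals, and Tpi1 (303 and 525, 0.78) and Pfkfb4 (275 and 434, 0.65) were not called. Around the glycolysis genes 18 of 28 distal windows (64.3%) were higher, against 23.9% of all, the highest share among the 26 lists. Of these, 7 were nearest to Hk2, whose start had 476 and 483 tags, and 6 to Pfkfb3. The change at Hk2, named here for this reason after its values were seen, was thus in its distal windows and not at its start.

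Of 28 lysosome and proton pump genes 3 were higher and 0 lower, with Ctsl (7 and 46 tags, 2.09), Ctsd (301 and 723, 1.25, 1.07 to 1.46) and Hexa (291 and 603, 1.04) called and Lamp1 (170 and 326, 0.92) not. The first 2 are cathepsin proteases, and Hexa is a subunit of hexosaminidase. Of 23 genes of the actin cytoskeleton and motility 3 were higher and 1 lower. Myo1f, a myosin of leukocytes, had 63 and 360 tags (2.42, 2.13 to 2.93), Anxa2 23 and 75 (1.52) and S100a4 28 and 77 (1.31). Anxa1, an annexin that dampens inflammation, went from 742 to 355 (-1.05) after 124 at 0 hpi. It thus had its highest value at 3 hpi, and with background scaling or GC centring 0 members of the list were lower.

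Of 38 measured cell cycle and replication genes 4 were lower, 0 higher and 4 above 0, with a median of -0.39. Ccne2 (cyclin E2) went from 631 tags at 3 hpi to 276 at 12 hpi (-1.18, -1.40 to -0.99) and 130 at 48 hpi. The helicase subunits Mcm2 (260 and 113, -1.17) and Mcm3 (306 and 148, -1.02) and Ccnd1 (cyclin D1, 655 and 303, -1.10) were the others. At Mcm2 and Mcm3 the level fell further, to 69 and 48 tags at 48 hpi. After GC centring 1 member was lower. Genes used in every cell had a median of -0.32, which was below that of all starts, with 0 of 12 called. Examples are Rplp0 (543 and 384 tags, -0.49), Ywhaz (926 and 676, -0.45) and Tubb5 (718 and 533, -0.43). A list median near -0.3 is therefore what strong starts of common genes also had.

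Of 20 genes of the unfolded protein and heat shock response, 1 was higher and 1 lower. Hsph1, a heat shock protein, went from 431 to 177 tags (-1.26) and Hsp90aa1, a heat shock protein of another family, from 87 to 197 (1.14), with 155 and 242 at 0 hpi. They moved apart at 3 hpi and were near each other again at 12 hpi. Pdia4 (619 and 322, -0.93) and Srxn1 (28 and 13, -0.87) were not called. Of the T lineage markers 7 of 13 were measured and 1 was higher, Gata3 (194 and 495 tags, 1.33), with Lck (11 and 21), Cd2 (157 and 256) and Tcf7 (102 and 65) not called. Of 10 erythroid markers 5 were measured and none called. Zfpm1 (504 and 400), Epor (26 and 29), Tal1 (236 and 218) and Gfi1b (294 and 302) had changes between -0.33 and 0.13. The non-blood genes measured were Col1a1 (12 and 16 tags) and Gfap (9 and 12).

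The study followed distal elements of named genes, and 7 of them were measured by their distance from the start. The window 24 kb downstream of the start of Tlr4, the lipopolysaccharide receptor, had 137 tags at 3 hpi and 335 at 12 hpi (1.26, 0.999 to 1.59), with 6 at 0 hpi and 781 at 48 hpi. The window 16 kb upstream of Ctsd had 25 and 157 (2.43, 2.04 to 3.32), with 9 at 0 hpi and 634 at 48 hpi, and its H3K4Me1 went from 48 to 297 tags. The window 3 kb downstream of the start of Csf1r, in an intron, had 144 and 348 (1.24, 0.99 to 1.56) and 320 and 649 H3K4Me1 tags. These 3 windows rose at least 2-fold. The window 65 kb downstream of Cebpb had 634 and 1051 tags (0.73, 0.59 to 0.87) after 159 at 0 hpi, and the one 88 kb downstream had 1057 and 1043 (-0.02), with an interval that held 0. The sources used here differ on which side of the gene the latter element lies. The window 14 kb upstream of the 5′ end of Sfpi1 had 44 and 76 (0.73), but since that 5′ end lies 14390 bp upstream of the gene's last annotated start, the element at this distance from the latter is the 5′ end window given above. The window 150 kb upstream of Tgfbr2 had 716 and 641 (-0.16). In the window 65 kb downstream of Cebpb the larger step was thus before 3 hpi.

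The letters of the distal windows were then counted in the 1000 bp around each centre. AP-1 letters (TGANTCA) were found in 39.3% of higher and 27.8% of lower windows, against 32.5% of all, and PU.1 letters (GAGGAAGT) in 17.1% and 9.79%, against 14.2%. C/EBP letters (TTGCNNAA) were found in 39.9% of higher and 44.4% of lower windows, against 38.8%. Higher and lower windows differed in GC content, with medians of 46.5% and 42.3%, and averaging over the 10 groups by GC content gave 39.5% and 26.4% for AP-1, 16.7% and 10.1% for PU.1 and 41.6% and 41.1% for C/EBP. After averaging, the shares for AP-1 and PU.1 still differed in the same direction, and those for C/EBP were within 1 percentage point. Letters for EBF (CCCNNGGGA) were in 14.3% of higher and 21.5% of lower windows after this averaging, against 15.4% and 17.2% without it. The E-box (CAGCTG) was in 41.5% and 49.4% with averaging and in 44.0% and 44.2% without. For RUNX (TGTGGTT), OCT (ATGCAAAT), IRF (GAAANNGAA), NF-kB (GGGANTTCC) and CRE (TGACGTCA) letters the averaged shares differed by at most 1.61 percentage points. In the 250 bases before starts, E-box letters were in 18.8% of higher and 13.7% of lower starts, against 11.5% of measured starts, and EBF letters in 5.56% and 8.09%, against 6.48%. PU.1 letters were in 5.56% of higher and 1.24% of lower starts, against 2.34%. C/EBP letters were in 11.9% and 8.92%, against 7.77%, and AP-1 letters in 9.33% and 6.43%, against 4.52%. At starts both classes thus lay above the share of all measured starts in E-box, C/EBP and AP-1 letters. The same held for NF-kB letters (3.37% and 1.87%, against 1.85%). Matches to different motifs may overlap, and windows of 1 genome are not replicates, so no test was run.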

How the data were processed

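The 9 libraries used hold 36 bp tags of H3K27Ac (0, 3, 12, 24 and 48 hpi), H3K4Me1 and H3K27Me3 (3 and 12 hpi each). The deposited files list 1 mapped tag per line, without strand, and tag counts were made from them. The authors aligned reads to mm9, by the labels with Bowtie, whose version and use per library are not given in the sources used here, and kept unique matches. H3K27Ac libraries held 15.93 to 18.56 M tags and 15.22 to 17.53 M distinct positions on chromosomes 1 to 19 and X, and were thinned to 15.22 M (H3K4Me1 16.41 M, H3K27Me3 18.13 M). No input library was used. Tags were counted by their middle (start plus 18 bp) in 3000 bp at the 5′ end of 22208 protein-coding genes, and H3K27Me3 in 5000 bp. Distal windows were centred on the highest bin of regions of 1000 bp bins with at least 17 tags in either library (Poisson tail below 0.001, up to 1 bin between), over 2500 bp from any transcript start. Named were the 10 starts and 5 distal windows with the largest changes each way with at least 50 tags at the higher time (gene models and antigen receptor loci left out for starts), up to 4 members of each list with the largest changes, every called transcription factor and 7 windows at distances the study names. One gene that the rule names is not reported here. Other genes are named for their role, with their values known. The members and lists were chosen with earlier results of these data known. All annotated starts of Sfpi1, Wdtc1, Zkscan17 and Sox13 were counted after the data were seen. Exact Clopper-Pearson and Poisson intervals (scipy 1.17.1, Python 3.11.15) cover counting error only. Scripts were tested on simulated tags. No test across times was run.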

Additional observations from a re-analysis of the deposited data

How the results depend on the processing

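With 1 library per mark and time, differences between libraries from other sources cannot be told apart from those of time. Windows with few tags are called more often, and the ratio of tags says nothing of absolute amounts. No paired analysis was possible because there is 1 library per time. Over 114 results and 16 settings, 3 of the main values and 3 of the single genes were counted as changed in direction. A further 90 main values moved by more than counting error or, for counts, by over 1.5 times, while 424 did not. The count of 3 leaves out list medians near 0 that also changed sign. In 1000 bp, cholesterol synthesis went from 0.024 to -0.292 and glycolysis from 0.097 to -0.197. Background scaling took myeloid factors from -0.03 to 0.067, NF-kB genes from -0.014 to 0.082 and lipid handling from -0.042 to 0.054. Counts that moved were 333 higher starts in 1000 bp, 308 higher and 234 lower starts and 3322 higher and 1748 lower distal windows with 20 tags added, 3500 higher distal windows beyond 10000 bp, and 866, 298, 314 and 1111 lower starts with no minimum, a minimum of 60 tags, GC centring and 24 hpi for 12 hpi.
The median change at starts was -0.037 with 0 hpi for 3 hpi, -0.127 with 24 hpi for 12 hpi, -0.072 with background scaling, -0.314 and -0.115 in 1000 and 6000 bp, -0.147 with 20 tags added, -0.138 with no minimum, -0.179 with 60 tags, -0.181 with repeated tags kept and 0.000 after GC centring, which sets it. In distal windows it was 0.204 with 0 hpi, 0.263 with 24 hpi, 0.329 with background scaling, 0.279 in 1000 bp, 0.193 with 20 tags added, 0.202 with 60 tags, 0.181 beyond 10000 bp and 0.000 after GC centring.
The median H3K4Me1 change of lower starts turned to 0.155 with background scaling and 0.012 with GC centring, and was -0.179 with scaling by shared bins, 0.000 in 1000 bp and -0.196 in 6000 bp. For higher starts it was 0.816 with background scaling and 0.442 with no minimum. For higher distal windows it was 1.163 with background scaling, 0.884 with shared bins, 0.814 in 1000 bp, 1.067 with GC centring and 1.015 with a Poisson tail below 1e-06, and for lower ones -0.116, -0.441, -0.241 and -0.422 with the first 4 of these, -0.420 in 6000 bp, -0.304 with 20 tags added and -0.335 with 60 tags.
The median H3K27Me3 change of higher distal windows turned to -0.037 with shared bins, and was 0.167 with background scaling and 0.059 with 20 tags added. For lower distal windows it was 0.095, -0.112 and -0.008 with background scaling, shared bins and GC centring, and for higher starts 0.216, 0.004 and 0.028. For lower starts it was 0.238, 0.003 and 0.036 with the same settings, 0.064 in 6000 bp, 0.059 with no minimum and 0.176 with 60 tags.
The share of higher starts at least 2-fold over 0 hpi at 24 hpi was 74.2% with background scaling, 61.6% and 72.7% with 1 and 20 tags added, 53.8% with no minimum and 60.7% with GC centring, and of higher distal windows 81.9%, 71.8% (1000 bp), 77.1% (20 tags), 77.6% (60 tags), 78.2% (GC centring) and 78.2% (Poisson tail). The share of lower starts at least 2-fold under was 46.4% with background scaling, 49.6% and 47.0% in 1000 and 6000 bp, 64.5% with 1 tag added and 38.7% with no minimum, and of lower distal windows 59.3%, 61.5% (1000 bp), 70.5% (1 tag), 62.9% (20 tags), 69.5% (60 tags), 71.5% (GC centring) and 69.6% (Poisson tail).
List medians that moved in 1000 bp were those of immediate early (-0.499), NF-kB (-0.268), cholesterol (-0.292), glycolysis (-0.197) and cell cycle genes (-0.650), and with GC centring those of B lineage factors (-0.328), cholesterol synthesis (0.169) and genes used in every cell (-0.143). At the transcript start with the most tags Sox13 gave 0.244, Wdtc1 -0.761 and Zkscan17 -0.709. Beyond the construction of each setting, the cause was not tested.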
